A study of Homo sapiens with 4 samples.

Results

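The 10 genes described here are human noncoding genes that carry small nucleolar RNAs (snoRNAs) in their introns: *SNHG1*, *SNHG3*, *SNHG5*, *SNHG6*, *SNHG7*, *SNHG8*, *SNHG12*, *SNHG15*, *GAS5* and *ZFAS1*. They were chosen by gene name and not by their values on these arrays. They had 24 probes, of 58201 probes and 22439 named genes in all. Each probe was assigned through its RefSeq accession, and all 24 were well above background on every array.

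snoRNAs guide the chemical modification of ribosomal RNA: box C/D snoRNAs direct ribose methylation and H/ACA snoRNAs direct pseudouridylation. Most human snoRNAs are cut out of introns. The spliced host RNA that remains is often noncoding, is exported, and in many of these genes is degraded by nonsense-mediated decay when ribosomes run over it. *GAS5* was named for RNA that accumulates in growth-arrested cells, and several hosts start, like ribosomal protein genes, with a run of pyrimidines (a terminal oligopyrimidine tract) that ties their RNA to translation.

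A549 is an established line of human lung adenocarcinoma cells, and the series asked which of its genes change after either strand of the miR-486 precursor is supplied. There were 4 one-color Cy3 arrays of total RNA in 3 groups: 1 array from *miR-486-5p* transfection, 1 from *miR-486-3p* transfection, and 2 mock arrays, whose cells saw only the transfection reagent. All cells were grown in RPMI medium. No group received a control miRNA, so effects of these strands and of any small RNA cannot be told apart. Each strand has 1 array, the labels give no time of RNA collection and do not say whether the mock arrays came from separate cultures, and p-values measure the spread between these arrays only.

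The 4 arrays shared 1 slide and 1 scan. Between 30690 and 31516 probes per array were well above background, no spot was saturated, and the 75th percentile of the signal was lowest on the *miR-486-3p* array (93.1, against 105 with *miR-486-5p* and 114 on both mocks). Of 7 markers listed for A549, 5 had every array well above background on at least 1 probe, among them the keratins *KRT8* and *KRT18*. *EPCAM* and *AKR1B10* were dim and had no such probe. Of 10 markers of blood, endothelium, fibroblasts and liver, 5 also had such a probe, among them *CD14*, which was higher after *miR-486-3p* by 2.22 on the log2 scale. Only 7 of these 10 had a probe in the limma fit. Among those 7, the *miR-486-5p* comparison gave 1 lower call and no higher call, where all genes had shares of 6.66% and 3.58%. The *miR-486-3p* comparison gave 3 calls in each direction, where the shares were 31.6% lower and 31.9% higher. *PECAM1*, *COL3A1* and *HBB* were not measured above background by the rule used here. The part of other cells in the results below was not tested.

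The first bases of the host RNAs are shown because this is where a pyrimidine tract would lie. RefSeq (build GRCh38.p14) gave a start for 8 of the 10 genes, and *SNHG6* and *SNHG15* are named only. Each line gives 10 bases before the annotated start and 20 bases from it, 5′ to 3′ on the gene's strand, and capitals mark the unbroken run of C and T that begins at the start.
SNHG1, chr11:62855866-62855895, minus strand: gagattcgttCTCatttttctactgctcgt
SNHG5, chr6:85678714-85678743, minus strand: gcacttcggtCTTTTacgtcggccttcgcg
GAS5, chr1:173869026-173869055, minus strand: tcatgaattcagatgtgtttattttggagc
ZFAS1, chr20:49278632-49278661, plus strand: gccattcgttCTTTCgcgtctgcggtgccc
SNHG3, chr1:28505933-28505962, plus strand: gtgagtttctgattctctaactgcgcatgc
SNHG7, chr9:136728165-136728194, minus strand: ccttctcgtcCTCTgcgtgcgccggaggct
SNHG8, chr4:118278752-118278781, plus strand: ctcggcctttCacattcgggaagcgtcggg
SNHG12, chr1:28581854-28581883, minus strand: gcttcagcgcCCTTTCTCCCCgccgcattc

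The run was 11 bases long in *SNHG12*, 5 in *SNHG5* and *ZFAS1*, 4 in *SNHG7*, 3 in *SNHG1* and 1 in *SNHG8*. It was absent at the annotated start of *SNHG3* and *GAS5*, and genes with several starts may use another. A C followed by 4 pyrimidines, read on the gene's strand at the start alone, was present in 3 of the 8 genes and in 1429 of 35116 starts in the same table (4.07%). This is a description of the annotated letters, not of a start measured in these cells.

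Levels are log2 signals minus the 75th percentile of the same array, averaged over a gene's probes, and a log2 difference is a strand's level minus the mean of the 2 mock levels. Levels of different probes are not comparable, so genes are compared by their differences only. The members' probes were well reproduced between the mock arrays: the median gap between the 2 mock values was 0.045, and the widest was 0.18. The median gap was 0.092 over every probe of the arrays that passed the background in all 4. limma was fitted to all 4 arrays and adjusted over all probes tested, and a gene is said to have risen or fallen where at least 1 of its probes had an adjusted p under 0.05. The standard errors of the members' differences from mock were between 0.087 and 0.13, and they rest on 1 residual degree of freedom, between the mock arrays.

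**Figure D1:**
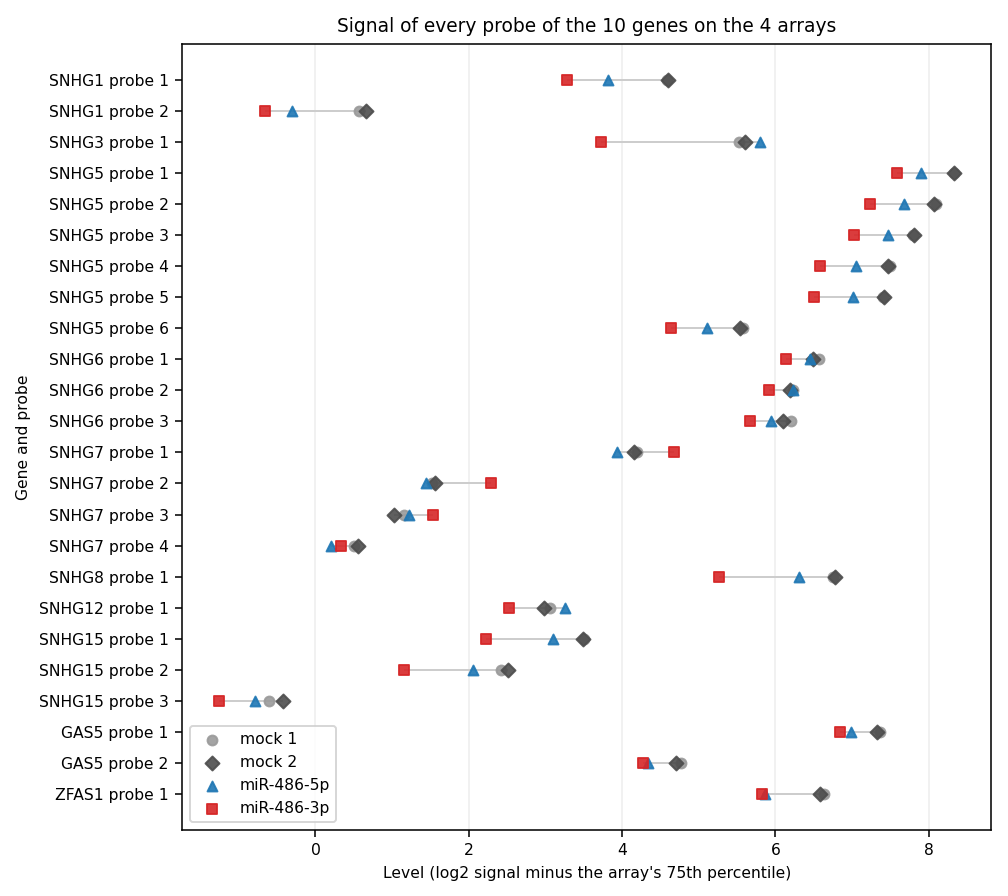
Level of each of the 24 probes (log2 signal minus the 75th percentile of the array, horizontal axis) on the 4 arrays. Grey circles and dark diamonds are the mock arrays, blue triangles *miR-486-5p* and red squares *miR-486-3p*. The mock arrays lie within 0.18 of each other for every probe, and the *miR-486-3p* array lies below both of them for 21 probes.

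After *miR-486-3p*, 9 of the 10 genes fell by the limma test and 1, *SNHG7*, rose. With median scaling the difference of *SNHG7* was −0.030 and limma called it lower. The background over all genes was wide in the same comparison: limma called 31.6% of 16662 genes lower and 31.9% higher. These are bulk RNA samples, in which fewer cells of a kind and less RNA per cell cannot be told apart. The log2 difference was below −0.5 in 7 of the 10 genes, against 27.2% of 16446 genes, and above 0.5 in none, against 30.4%. The median difference of the 10 genes was −0.82, against 0.06 over all genes. Among long noncoding RNA genes alone, 18.7% were below −0.5 and 34.9% above 0.5.

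After *miR-486-5p*, limma called none of the 10 genes, against 6.66% of genes called lower and 3.58% called higher. At an unadjusted p below 0.05, 15 of the 24 probes passed, in 7 genes, and the lowest adjusted p was 0.0503. *SNHG1* and *ZFAS1* were below −0.5, which makes 2 of 10 genes against 15.9% of 16024 genes, and none was above 0.5, against 13.8%. The differences were negative for 8 of the 10 genes, with a median of −0.37 against 0.03 over all genes. The count of calls changed with the settings. An intensity trend in limma called 7 genes lower and 2 higher, and a fit on the probes well above background on all arrays called 6 lower. Normexp correction called 5 lower, median scaling 2 and quantile normalization 1. In each of these settings limma also called more genes lower, and more higher, over all genes than in the fit above. The shares of 6.66% and 3.58% therefore do not apply to these counts. The methods' t-test called 0 genes after either strand, and also 0 over all genes, so this is no result about the 10. At an unadjusted p below 0.05 it called 5 lower for *miR-486-5p*, and 7 lower and 1 higher for *miR-486-3p*. No share over all genes or probes is given for the counts at an unadjusted p.

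**Figure D2:**
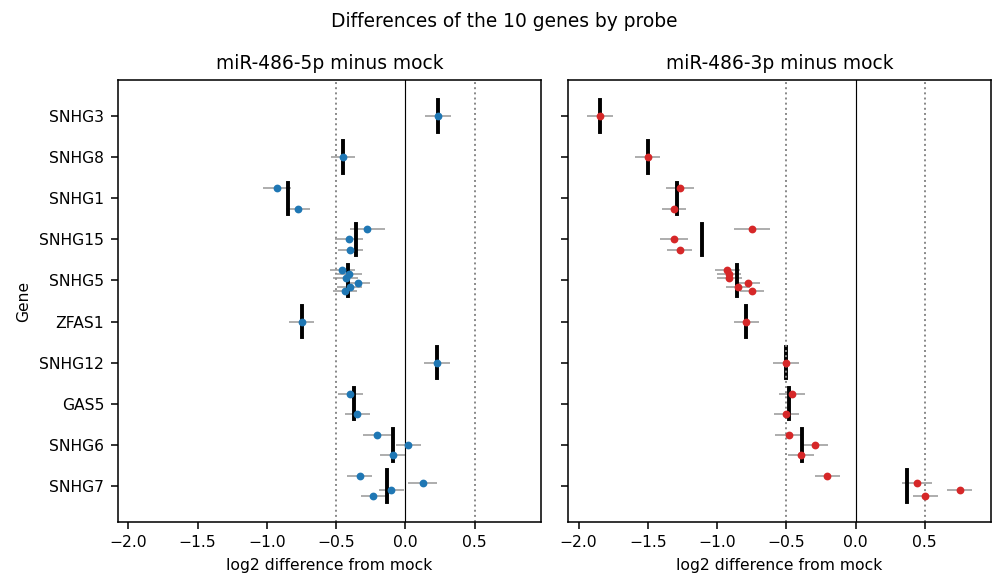
log2 difference from mock for each probe (points, with the limma standard error) and gene (black bar, mean over probes), after *miR-486-5p* (left, blue) and *miR-486-3p* (right, red). Dotted lines mark −0.5 and 0.5. After *miR-486-3p* the genes run from −1.84 for *SNHG3* to 0.37 for *SNHG7* (−0.030 with median scaling), and after *miR-486-5p* from −0.85 for *SNHG1* to 0.23 for *SNHG3*.

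The hosts of box C/D snoRNAs come first. *SNHG1* carries a cluster of box C/D snoRNAs and was measured by 2 probes. Its level was 2.58 on mock 1, 2.63 on mock 2, 1.76 with *miR-486-5p* and 1.32 with *miR-486-3p*. Both strands lay below both mock arrays on both probes. The difference after *miR-486-5p* was −0.85, or 55.5% of the mock level, with limma adjusted p of 0.0503 and 0.0508. After *miR-486-3p* *SNHG1* fell to 40.9% of mock (−1.29), with limma adjusted p of 0.0089 and 0.0104. One of its probes passed the direct test between the strands (*miR-486-3p* minus *miR-486-5p* −0.54, limma adjusted p = 0.0413), and the other did not (−0.34, adjusted p = 0.114).

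*GAS5*, whose introns carry 11 annotated snoRNA genes, had 2 probes. Its level was 6.06 on mock 1, 6.02 on mock 2, 5.67 with *miR-486-5p* and 5.56 with *miR-486-3p*. Each strand lay below both mock arrays on both probes. The difference was −0.37 after *miR-486-5p* (limma adjusted p of 0.093 and 0.107). After *miR-486-3p* *GAS5* fell to 71.8% of mock (−0.48, limma adjusted p of 0.0328 and 0.0397). That call was lost after quantile normalization, where the difference was −0.20 and the adjusted p 0.152, and on the authors' log2 values, where it was 0.117. The strands differed by −0.10 (*miR-486-3p* minus *miR-486-5p*), with limma adjusted p of 0.32 and 0.673. Neither strand array showed *GAS5* RNA above the mock arrays.

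*SNHG5*, the host of the SNORD50 snoRNAs, had the most probes, 6, and they moved together. Its level was 7.45 on mock 1, 7.44 on mock 2, 7.03 with *miR-486-5p* and 6.59 with *miR-486-3p*. All 6 probes lay below both mock arrays after either strand. The probes ranged from −0.46 to −0.34 after *miR-486-5p*, none of them called (lowest adjusted p 0.0776). After *miR-486-3p* they ranged from −0.92 to −0.74, all 6 were called, and *SNHG5* fell to 55.3% of mock (limma adjusted p from 0.0126 to 0.0166).

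*ZFAS1*, antisense to the promoter end of *ZNFX1* and host of the SNORD12 family, had 1 probe. Its level was 6.63 on mock 1, 6.58 on mock 2, 5.86 with *miR-486-5p* and 5.82 with *miR-486-3p*. Both strand values lay below both mock values and close to each other. The difference was −0.75 after *miR-486-5p*, or 59.5% of mock (limma adjusted p = 0.0523). After *miR-486-3p* it fell to 57.9% of mock (−0.79, limma adjusted p = 0.0162). The direct difference between the strands was −0.04 with a standard error of 0.10 (limma adjusted p = 0.779).

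*SNHG6* carries SNORD87 and had 3 probes. Its level was 6.33 on mock 1, 6.26 on mock 2, 6.21 with *miR-486-5p* and 5.91 with *miR-486-3p*. After *miR-486-5p* 2 of its probes lay below both mock arrays and the other lay between them, with a mean difference of −0.09. After *miR-486-3p* all 3 probes lay below both mock arrays, with a mean difference of −0.39. limma called 1 of the 3 (adjusted p = 0.0438), and no probe after quantile normalization (lowest adjusted p 0.166).

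The hosts of H/ACA snoRNAs held both extremes after *miR-486-3p*. *SNHG3*, which carries the SNORA73 snoRNAs, had 1 probe and the largest fall of the 10 genes. Its level was 5.53 on mock 1, 5.60 on mock 2, 5.80 with *miR-486-5p* and 3.72 with *miR-486-3p*. It lay above both mock arrays after *miR-486-5p* (difference 0.23, limma adjusted p = 0.195) and far below them after *miR-486-3p*. *SNHG3* fell to 27.9% of mock after *miR-486-3p* (−1.84, limma adjusted p = 0.00774), and 4.23% of all genes were lower. The strands differed by −2.08 (limma adjusted p = 0.0119), the widest gap between the strands among the 10 genes.

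*SNHG8*, the host of SNORA24, had 1 probe. Its level was 6.75 on mock 1, 6.77 on mock 2, 6.31 with *miR-486-5p* and 5.26 with *miR-486-3p*. Both strand values were below both mock values. The difference after *miR-486-5p* was −0.45 (limma adjusted p = 0.0765). After *miR-486-3p* *SNHG8* fell to 35.3% of mock (−1.50, limma adjusted p = 0.00826), and the strands differed by −1.05 (limma adjusted p = 0.0167).

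*SNHG15*, the host of SNORA9, had 3 probes. Its level was 1.77 on mock 1, 1.86 on mock 2, 1.46 with *miR-486-5p* and 0.71 with *miR-486-3p*. All 3 probes lay below both mock arrays after either strand. The mean difference after *miR-486-5p* was −0.36 (lowest limma adjusted p 0.0881). After *miR-486-3p* it fell to 46.3% of mock (−1.11, limma adjusted p from 0.00908 to 0.0299). The dimmest probe showed the smallest difference, −0.75, and the others −1.27 and −1.31.

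*SNHG12* carries SNORA16A, SNORA44, SNORA61 and SNORD99 and had 1 probe. Its level was 3.06 on mock 1, 2.99 on mock 2, 3.25 with *miR-486-5p* and 2.52 with *miR-486-3p*. As with *SNHG3*, the *miR-486-5p* value lay above both mock values (difference 0.23, limma adjusted p = 0.205) and the *miR-486-3p* value below them. *SNHG12* fell to 70.6% of mock after *miR-486-3p* (−0.50, limma adjusted p = 0.0361), a call that was lost after quantile normalization (−0.37, adjusted p = 0.053). The strands differed by −0.73 (limma adjusted p = 0.0294). Its difference sat just inside the limit of −0.5, and *GAS5*, at −0.48, just outside.

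*SNHG7*, which carries SNORA17 snoRNAs, stood apart from the others. Its 4 probes gave a level of 1.84 on mock 1, 1.83 on mock 2, 1.70 with *miR-486-5p* and 2.21 with *miR-486-3p*. After *miR-486-3p* 3 probes lay above both mock arrays (0.50, 0.75 and 0.45) and the other lay below them (−0.20). limma called the first 2 of these higher (adjusted p of 0.0325 and 0.0171), so *SNHG7* rose by its rule, with a mean difference of 0.37. With median scaling, which put the median of all genes at −0.35, the mean difference of *SNHG7* was −0.030. limma then called 1 of its probes, lower (adjusted p = 0.0211). Its probes are listed under 3 RefSeq transcripts of the gene, and the probe that was lower shares its transcript with none of the others, as does the probe at 0.75. After *miR-486-5p* the mean difference was −0.14, with no probe called. The direct test between the strands called the same 2 probes, which were higher after *miR-486-3p* by 0.74 and 0.85 (limma adjusted p of 0.0264 and 0.0216).

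The 2 comparisons with mock share both mock arrays, so their values for a gene are not independent. The direct test between the strands called at least 1 probe in 7 of the 10 genes. With quantile normalization or the authors' log2 values it did so in 5 genes, and with no filter on dim probes in 4. It called *SNHG1*, *SNHG3*, *SNHG5*, *SNHG8*, *SNHG12* and *SNHG15* lower after *miR-486-3p* than after *miR-486-5p*, against 27.3% of all genes, and *SNHG7* higher, against 26.7%. *SNHG6*, *GAS5* and *ZFAS1* had no probe called. On single probes, 21 of 24 lay below both mock arrays after *miR-486-3p*, against 47.0% of named probes well above background on every array, and 20 of 24 after *miR-486-5p*, against 42.2%. Probes of the same gene are not independent, and 6 of the 24 are probes of *SNHG5*.

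Differences moved with signal level on these arrays, and 16 of the 24 probes were bright, with a mean mock level above 4. After *miR-486-3p* the median difference of all probes went from 0.33 for mock levels below −2 to −0.36 for levels between 4 and 6, and was −0.22 above 6. The members' probes had medians of −0.92 and −0.78 in these last bins. All 6 probes of *SNHG5* lie in these bins, and both medians are values of single *SNHG5* probes. Probes of the same gene are not independent. Between 0 and 2 the members' probes had a median of 0.12, against −0.04 over all probes, and between 2 and 4 −1.27, against −0.23. With quantile normalization the medians of all probes were −0.09 between 4 and 6 and −0.05 above 6, and the median of the 10 genes was −0.57. After *miR-486-5p* the medians of all probes in these 2 bins were −0.07 and −0.03, and those of the members −0.40 in both. The part of signal level in the members' differences was not tested beyond these values.

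**Figure D3:**
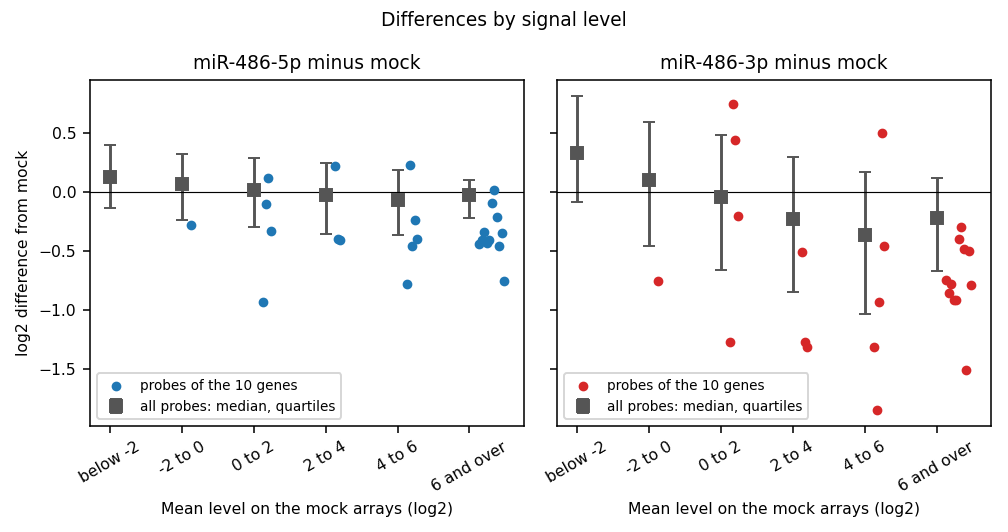
log2 difference from mock against the mean level on the mock arrays, in 6 bins (log2 signal minus the 75th percentile). Grey squares are the medians of all probes in use, with bars from the lower to the upper quartile, and points are the 24 probes of the 10 genes, set slightly to the right. After *miR-486-3p* the median of all probes falls from 0.33 in the dimmest bin to −0.36 in the bin from 4 to 6, and most of the members' probes lie below the median of their bin.

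The snoRNAs inside these genes were divided in direction after *miR-486-3p*. RefSeq places 36 snoRNA genes inside the 10 hosts, 25 of them had a probe, in 7 of the hosts, and all 25 were well above background on every array. The kit primes on poly(A) RNA, which mature snoRNAs lack, so these probes may read host introns, precursors or snoRNAs that were copied without a tail, which cannot be told apart here. After *miR-486-3p* limma called 5 of the 25 lower and 6 higher, against 7.49% and 54.6% of 227 snoRNA genes on the arrays. Of the 25, 5 were below −0.5 and 4 above 0.5, against 7.14% and 55.8%. Their median difference was 0.03, against 0.61 over all snoRNA genes and −0.82 over the host genes.

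Several of these snoRNAs rose where the host fell. SNORA44 in *SNHG12* was at −1.98 on mock 1, −2.03 on mock 2, −2.31 with *miR-486-5p* and 1.13 with *miR-486-3p*, a rise of 3.14 (limma adjusted p = 0.00762). SNORA9 in *SNHG15* was at 0.96 on mock 1, 0.94 on mock 2, 1.00 with *miR-486-5p* and 3.61 with *miR-486-3p*, a rise of 2.66 (limma adjusted p = 0.00762). SNORD74 in *GAS5* rose by 2.13 and SNORD25 in *SNHG1* by 1.68. These *miR-486-3p* values lay above both mock arrays and above the *miR-486-5p* array. With normexp correction the rises were 1.74 for SNORA44, 2.53 for SNORA9, 1.54 for SNORD74 and 0.68 for SNORD25. SNORD80 in *GAS5* and SNORD12C in *ZFAS1* rose by 0.50 and 0.47, and were at 0.095 and 0.063 with median scaling.

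Other snoRNAs of the same hosts fell. In *GAS5* these were SNORD47 (−1.25), SNORD75 (−1.14) and SNORD77 (−0.86), the latter pair at −0.26 and −0.20 with normexp correction, beside SNORD44 at −0.20 and SNORD76 at 0.03, which were not called. In *SNHG12* SNORD99 fell by 0.63, beside SNORA16A at −0.06 and SNORA61 at 0.34. SNORA24 was at −1.10 and its host *SNHG8* at −1.50, both called. In *SNHG1* the snoRNAs other than SNORD25 lay between −0.21 and 0.20, and none of them was called.

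After *miR-486-5p* the same snoRNAs were close together. Their median difference was −0.32, against −0.05 over all snoRNA genes on the arrays, and 23 of the 25 were below 0. Of the 25, 5 were below −0.5, against 7.87% of snoRNA genes, and none above 0.5, against 6.48%. limma called 1, SNORA24, lower (−0.87, adjusted p = 0.0482), and called none higher. SNORA24 was also the only one of 227 snoRNA genes called lower (0.441%), so that share gives no separate comparison. The 8 snoRNAs of *SNHG1* lay between −0.56 and −0.06, and their host at −0.85.

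**Figure D4:**
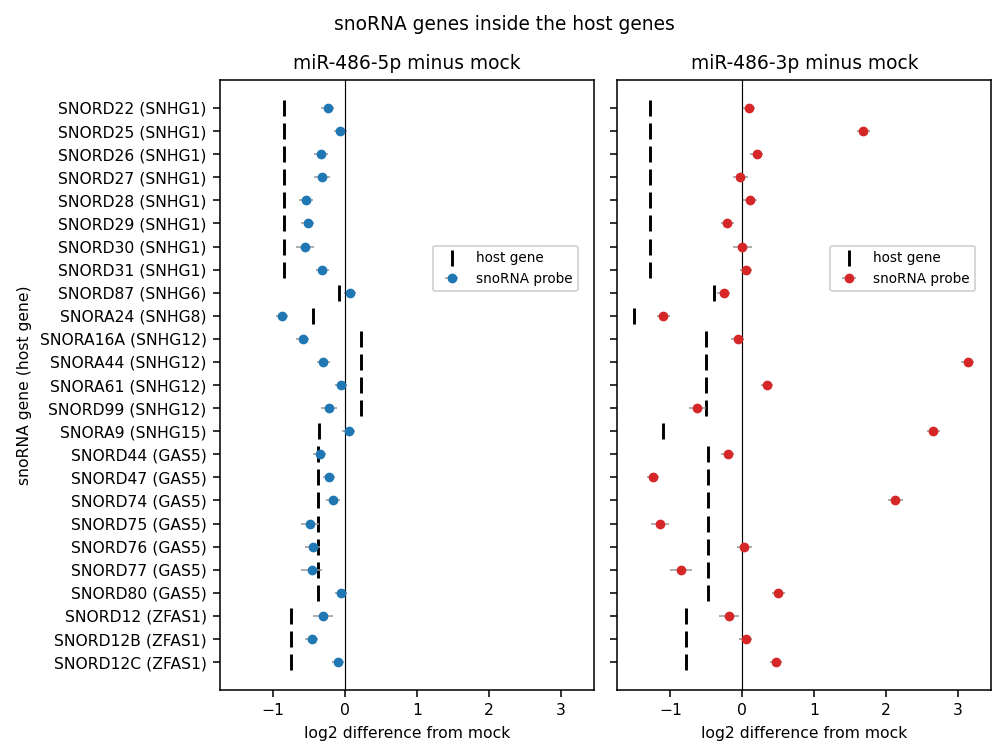
log2 difference from mock for the 25 snoRNA genes with a probe inside the host genes (points, with the limma standard error) and for their host gene (black ticks), after *miR-486-5p* (left, blue) and *miR-486-3p* (right, red). After *miR-486-5p* the snoRNAs lie between −0.87 and 0.07. After *miR-486-3p* they spread from −1.25 for SNORD47 to 3.14 for SNORA44, and 4 of them lie above 0.5 while every host shown lies below 0.

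The genes beside the hosts did not share 1 direction. *RCC1*, the exchange factor for the GTPase Ran, overlaps *SNHG3* on the same strand, and its probe was at −1.65 after *miR-486-5p* (limma adjusted p = 0.0475) and −1.32 after *miR-486-3p* (adjusted p = 0.0102). *SNHG3* was at 0.23 and −1.84. *TRNAU1AP*, a selenocysteine tRNA factor that overlaps *SNHG12* on the opposite strand, was at −0.66 after *miR-486-5p* and rose by 1.42 after *miR-486-3p* (adjusted p = 0.00859). The positions of probes within the overlapping spans were not used here, so RNA of one gene read by the probe of the other cannot be told apart.

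Beside *SNHG1*, *SLC3A2*, a heavy chain of amino acid transporters, fell by 1.02 after *miR-486-3p* and *WDR74* was at −0.13. *SYNCRIP*, an RNA-binding protein gene beside *SNHG5*, fell by 1.34 after *miR-486-3p* and was at −0.61 after *miR-486-5p*. *ZBTB37*, which overlaps *GAS5*, rose by 1.58 after *miR-486-3p*. *GAS5-AS1* was at 0.93 after *miR-486-5p* and 0.08 with *miR-486-3p*, with neither called. *PRSS12*, beside *SNHG8*, was at least 18.0-fold lower after *miR-486-3p*, where its probe was not well above background (limma adjusted p = 0.00762). That bound holds for the scaled signal alone, since the difference was −1.29 with normexp correction. *ZNFX1*, beside *ZFAS1*, had 3 probes with a mean of 0.64 after *miR-486-3p*, all called higher, and 0.63 after *miR-486-5p*, where *ZFAS1* was at −0.75. *AGPAT2*, beside *SNHG7*, rose by 1.05 after *miR-486-3p*, and *DIPK1B*, which overlaps *SNHG7*, was at −0.29.

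Other snoRNA host genes were divided. The shares over all genes after *miR-486-3p* were those given above, 27.2% below −0.5 and 30.4% above 0.5, with 31.6% called lower by limma and 31.9% higher. Of 14 other noncoding snoRNA hosts with a probe, 4 were below −0.5 and 4 above 0.5 after *miR-486-3p*, close to those shares, with a median of 0.10. limma called 5 of them lower and 4 higher. Among those above background on all arrays the lowest were *DANCR* (−2.03) and *SNHG4* (−1.27), and the highest *SNHG22* (1.39) and *SNHG9* (0.74), of which *SNHG4* was at −0.30 and *SNHG22* at 0.17 with normexp correction. After *miR-486-5p* 1 was below −0.5 and 1 above 0.5, against 15.9% and 13.8% of all genes, with a median of 0.06. limma called 1 lower and none higher, against 6.66% and 3.58%. Of 40 protein-coding snoRNA hosts, 15 were below −0.5 and 4 above 0.5 after *miR-486-3p*, with a median of −0.33, and limma called 19 lower and 4 higher. Most of these hosts had a mock level above 4. The median of all probes was −0.36 for mock levels from 4 to 6 and −0.22 above 6, and the part of signal level was not tested. *RPL13A*, a ribosomal protein gene, fell by 2.02 and *ATP5F1B*, an ATP synthase subunit gene, fell by 1.72, while *TPT1* rose by 1.25 and *EIF5* by 1.15. After *miR-486-5p* 4 coding hosts were below −0.5 and none above 0.5, against the same 15.9% and 13.8% of all genes. Their median was −0.04, and limma called 1 lower, against 6.66%.

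Of 17 genes for proteins that bind and assemble snoRNAs, limma called 7 lower and none higher after *miR-486-3p*, against 31.6% and 31.9% of all genes. Their median was −0.32, against 0.06 over all genes. Most of them had a mock level above 2. The median of all probes was −0.23 for mock levels from 2 to 4, −0.36 from 4 to 6 and −0.22 above 6. The part of signal level in this list was not tested. *NHP2*, an H/ACA core protein, fell by 2.05 and *NUFIP1*, an assembly factor, fell by 1.23 (−0.27 with normexp correction). At the limit of −0.5, 7 were lower after *miR-486-3p*, against 27.2% of all genes, and 4 with *miR-486-5p*, against 15.9%. There the median was −0.15, limma called none in either direction, and the highest were *NOP10* (0.40) and *NUFIP1* (0.33). Of 22 nonsense-mediated decay factors, 9 were called lower by limma and 6 higher in the *miR-486-3p* comparison, near the 31.6% and 31.9% of all genes, and the median was −0.23. *SMG9* fell by 1.56 and *UPF3B*, which links the exon junction to the decay machinery, by 1.01, while *NBAS* rose by 0.78. After *miR-486-5p* none of the 22 was called, with a median of 0.04, and the decapping enzyme gene *DCP2* was at 0.82 (limma adjusted p = 0.052).

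Of 21 noncoding RNAs listed that host no snoRNA, 3 were below −0.5 and 8 above 0.5 after *miR-486-3p*, near the 18.7% and 34.9% of long noncoding RNA genes, with a median of 0.25 against 0.23 over those genes. limma called 14 of the 21, 3 only lower, 8 only higher, and 3 in both directions on different probes. Over all genes it called 31.6% lower and 31.9% higher. *RPPH1*, the RNA of RNase P, rose by 1.69 and *KCNQ1OT1* by 1.31, while for *MIR17HG* (−0.85) and *NEAT1*, the scaffold of paraspeckles (−0.67), limma called 1 of 3 probes each. After *miR-486-5p* none of 20 was below −0.5 and 7 were above 0.5, against 10.8% and 18.7% of long noncoding RNA genes. The median was 0.26, against 0.13 over those genes. limma called 1 lower and 4 higher, against 6.66% and 3.58% of all genes. Of 8 growth-arrest-specific genes and *GAS5*-linked glucocorticoid receptor genes with a value after *miR-486-3p*, 4 were below −0.5 and 2 above 0.5. The shares over all genes were 27.2% and 30.4%. Their median was −0.53, and limma called 3 lower and 2 higher, against 31.6% and 31.9% of all genes. *GAS2L3*, a cytoskeletal linker of the midbody, fell by 2.76 and *GAS2L1* by 1.17, while *GAS6* was at 0.32 and *NR3C1*, the glucocorticoid receptor gene, at 0.12, with neither called. After *miR-486-5p* 2 of 6 were below −0.5 and none above 0.5, against 15.9% and 13.8% of all genes. The median was −0.27, and limma called none.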

How the data were processed

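The members and gene lists were chosen with earlier results of these data known. Expression was measured on 4 one-color Agilent arrays. The authors deposited, for each array, the Agilent Feature Extraction output (version 12.1.1.1 per the file headers), with a background-corrected intensity for each spot, and a table of log2 values of the same arrays, whose normalization is not given in the sources used here and which served as an alternative. Outlier spots were dropped, the log2 intensity was scaled to the 75th percentile of each array, and spots of a probe were averaged. Of 33080 probes with a RefSeq accession, 31104 matched a gene of the GRCh38.p14 table, used for names, gene neighbors and the printed starts only, since the arrays were annotated on another build. A gene's mean took each probe that was well above background on the strand array or on both mocks. limma 3.58.1 (lmFit and eBayes, R 4.3.3) was fitted to 33498 probes with 3 groups and Benjamini-Hochberg adjustment, and was tested on simulated data. Its prior SD was 0.0893, with 1.75 prior degrees of freedom. Where every array of a group missed that mark, the group took the dimmest passing signal of the array if higher than its own, and the fold is a bound. From each list at most 4 genes are named, the 2 lowest and 2 highest over both strands among genes above background on all arrays. The keratins, *EPCAM*, *CD14* and the other markers were named after their values were seen. Precision is limited by how few arrays there are. The values of 2 genes outside the 10 are not reported here.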

Additional observations from a re-analysis of the deposited data

Results flagged for a closer look

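The direct limma contrast of *miR-486-3p* minus *miR-486-5p* passed an adjusted p of 0.05 for 9 of the 24 probes, in 7 genes. *SNHG3* had the widest gap, at −2.08 (adjusted p = 0.0119), and it was above both mock arrays on one strand array and below both on the other. *SNHG12* showed the same opposite sides, with −0.73 (adjusted p = 0.0294). *SNHG8* differed by −1.05 (adjusted p = 0.0167), and 2 of the 3 *SNHG15* probes differed by −0.87 and −0.90 (adjusted p of 0.0203 and 0.0236). For *SNHG1* and *SNHG5* 1 probe each passed, at −0.54 (adjusted p = 0.0413) and −0.51 (adjusted p = 0.0450). *SNHG7* went the other way, with 2 of 4 probes at 0.74 and 0.85 (adjusted p of 0.0264 and 0.0216). limma called 27.3% of all genes lower and 26.7% higher in this contrast, each strand has 1 array, and causes were not tested.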

How the results depend on the processing

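No paired analysis was possible because each strand has 1 array and shares fewer than 2 replicate numbers with the mock arrays. For *miR-486-5p*, median scaling gave 4 genes below −0.5 and a limit of −1 gave 0. The median of the 10 genes was −0.46 with median scaling, −0.32 with quantile normalization and with the authors' log2 values, and −0.31 with normexp correction. limma called 7 genes lower and 2 higher with an intensity trend, 6 lower when a probe had to pass the background on every array, 5 lower with normexp correction, 2 with median scaling and 1 with quantile normalization. Over all genes it also called more lower, and more higher, in each of these settings than in the fit described above. For *miR-486-3p*, a limit of −1 left 4 genes, and the brightest probe alone put 1 gene, *SNHG7*, above 0.5. The median was −1.22 with median scaling, −0.57 with quantile normalization, −0.58 with the authors' values, −0.61 with normexp correction and −0.77 with the brightest probe. limma lost the calls of *SNHG6* and *SNHG12* with quantile normalization, the authors' values and no filter on dim probes, where 6, 6 and 7 genes were lower, that of *GAS5* with the first 2 of these, and that of *SNHG12* with normexp correction. The methods' t-test called 0 genes lower and 0 higher after adjustment, and also 0 over all genes. With median scaling, or when every probe of a gene had to be called, limma called 0 genes higher, and the difference of *SNHG7* with median scaling was −0.030. The direct contrast called 4 genes with no filter on dim probes, and 5 with quantile normalization or the authors' values; its alternatives, and those of the genes outside the 10, were chosen after seeing the data. Without either mock array, 6 to 8 genes were below −0.5 with *miR-486-3p* and 2 with *miR-486-5p*, and the medians were −0.83 to −0.81 and −0.38 to −0.36. limma could not be fitted without a mock array, for lack of residual degrees of freedom. Choosing probes by a gene name column was not run, since the probes were named by accession. Among the differences of single member genes, 1 reversed, that of *SNHG7*. Of 64 called or past-limit differences of genes outside the 10, none changed sign, but 38 were over 1.5 times smaller in at least 1 setting, 30 of them with normexp correction and 10 with median scaling.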
